A study of Mus musculus with 6 samples.

Results

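A set of 10 genes of the major histocompatibility complex (MHC) class II pathway and of dendritic cells was followed in mouse hearts under pressure overload. The genes were taken by symbol, and all 10 of 10 were found among the 18019 gene IDs of the expression table: the class II chains (H2-Ab1, H2-Aa, H2-Eb1), the invariant chain gene Cd74, the peptide-loading genes H2-DMa and H2-DMb1, the class II transactivator gene Ciita, and Cd83, Cd209a and Flt3. Every mouse was wild type, and hearts were collected 8 weeks after TAC (transverse aortic constriction), an operation that makes the left ventricle pump against a tightened aorta. VNS-TAC mice (3 libraries) had received rAAV-ChAT-hChR2[H134R]-GFP, a virus in which the choline acetyltransferase promoter drives a channel opened by light, in the dorsal vagal motor nucleus, so that vagal neurones could be driven by light. Ctrl-TAC mice (3 libraries) had received rAAV-ChAT-GFP, with the fluorescent protein and no channel. The library names of the VNS-TAC group read X10Hz_TAC. When light was given relative to the operation, and whether the controls received it, is not stated here. The operation is shared by both groups and no unoperated heart was analysed here, so the comparison is between VNS-TAC and Ctrl-TAC hearts that were all overloaded. The labels used here give no strain, sex or age.

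MHC class II molecules carry peptides from ingested proteins to the surface of dendritic cells, macrophages and B cells, where CD4+ T cells read them. The alpha and beta chains are assembled with the invariant chain, which blocks the groove until it is cut in the endosome, and the H2-DM heterodimer then exchanges the remaining fragment for a peptide. The genes are switched on together by CIITA, a coactivator that does not bind DNA itself but is recruited to a shared promoter element, in which the X box is bound by the RFX complex and the Y box, an inverted CCAAT sequence, by NF-Y. In the heart these genes are known mainly from resident and recruited macrophages and from a small population of dendritic cells.

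The element is shown for the class II genes in whose promoters it was found, because it is where Ciita, also among the 10 genes, is known to act. RefSeq promoter sequences of GRCm38.p6 (250 bases before to 50 bases after the start) matched 6 of the 10 genes. The stretches run from 110 to 31 bases before the start, 5′ to 3′ on the gene's own strand, with the X box core (AGNAAC in H2-Eb1 and H2-DMb1, GNAAC in H2-Aa) and the Y box core (ATTGG) in capitals. That of H2-Eb1 is chr17:34305757-34305836 (plus strand), that of H2-DMb1 chr17:34153081-34153160 (plus strand) and that of H2-Aa chr17:34287854-34287933 (minus strand).
H2-Eb1: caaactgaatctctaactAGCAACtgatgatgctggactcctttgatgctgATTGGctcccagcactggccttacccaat
H2-DMb1: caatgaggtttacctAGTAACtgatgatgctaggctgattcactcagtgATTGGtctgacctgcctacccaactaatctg
H2-Aa: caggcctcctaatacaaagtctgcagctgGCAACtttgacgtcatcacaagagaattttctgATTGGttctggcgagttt
The arrangement AGNAAC, then 22 to 34 bases, then ATTGG, searched on both strands, was found in the promoters of H2-Eb1 and H2-DMb1, with gaps of 27 and 28 bases. It was present in 214 of all 32851 promoters of that length, or 0.651%. The looser form GNAAC, chosen after the H2-Aa promoter was read, also took in H2-Aa with a gap of 28 bases and was present in 2.12% of promoters. CCAAT on either strand, of which ATTGG is the reverse complement, was in 37.4% of promoters and in 4 of the 7 promoter entries of these genes, 1 each of H2-Aa, H2-DMa, H2-DMb1 and H2-Eb1. The entries of Flt3 and Cd209a held no match to these motifs.

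All values are FPKM (fragments per kilobase of gene, corrected for sequencing depth), which the authors computed and deposited, so levels can be compared between genes. Low FPKM values fall on steps of 1 fragment, which put the depth at about 14000000 to 16000000 fragments per library. The libraries were of heart tissue, with the cardiomyocyte troponin gene Tnnt2 at 7014 to 15154 FPKM in each. The VNS-TAC libraries stood further apart than the Ctrl-TAC libraries did: the mean of the class II chains, less the Ctrl-TAC mean on the log2 scale, lay between -2.70 and -0.69 in VNS-TAC, against -0.11 to 0.14 in Ctrl-TAC. Results that rest on VNS-TAC 1 or VNS-TAC 3 are therefore given without them too. Every fold change below is of log2(FPKM + 1), a scale that understates the change of low genes.

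In VNS-TAC hearts the RNA of the class II chains was lower than in Ctrl-TAC hearts, with no overlap between the groups. H2-Aa, which encodes the alpha chain of I-A, was at 31.78, 19.01 and 7.88 FPKM in VNS-TAC hearts, against 51.8, 48.08 and 60.58 FPKM in Ctrl-TAC hearts, each given for libraries 1, 2 and 3 in that order, as are all values by library below. H2-Ab1, its beta chain partner, was at 28.2, 17.78 and 5.48 FPKM in VNS-TAC hearts, against 45.19, 44.4 and 50.95 FPKM in Ctrl-TAC. H2-Eb1, the beta chain of I-E, was at 19.1, 13.08 and 4.03 FPKM in VNS-TAC hearts, against 30.19, 27.3 and 32.3 FPKM in Ctrl-TAC. In all 3 genes the order of the VNS-TAC libraries was the same, VNS-TAC 1 highest and VNS-TAC 3 lowest, and even VNS-TAC 1 lay below each Ctrl-TAC library. These are bulk samples, in which fewer cells of a type and less RNA per cell cannot be told apart.

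The 3 chain genes lie side by side on mouse chromosome 17 (GRCm38.p6), H2-Ab1 at 34263227 to 34269418, H2-Aa at 34282744 to 34287823 and H2-Eb1 at 34305867 to 34316674. The log2 fold changes of VNS-TAC over Ctrl-TAC were -1.59 ± 0.42 for H2-Aa, -1.65 ± 0.49 for H2-Ab1 and -1.46 ± 0.46 for H2-Eb1 (SE). By limma with Benjamini-Hochberg adjustment over all 11422 genes tested, the adjusted p was 0.232, 0.246 and 0.251, so none of the 3 passed the threshold of 0.05. Among the 11422 genes ordered from the most negative fold change, they stood at places 23, 18 and 33. Without VNS-TAC 3 the log2 fold changes were -1.08, -1.03 and -0.88, and without VNS-TAC 1 they were -2.02, -2.11 and -1.88 (adjusted p = 0.0758, 0.0851 and 0.0925, limma). Without Ctrl-TAC 2 their limma adjusted p was 0.707 to 0.711.

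**Figure D1:**
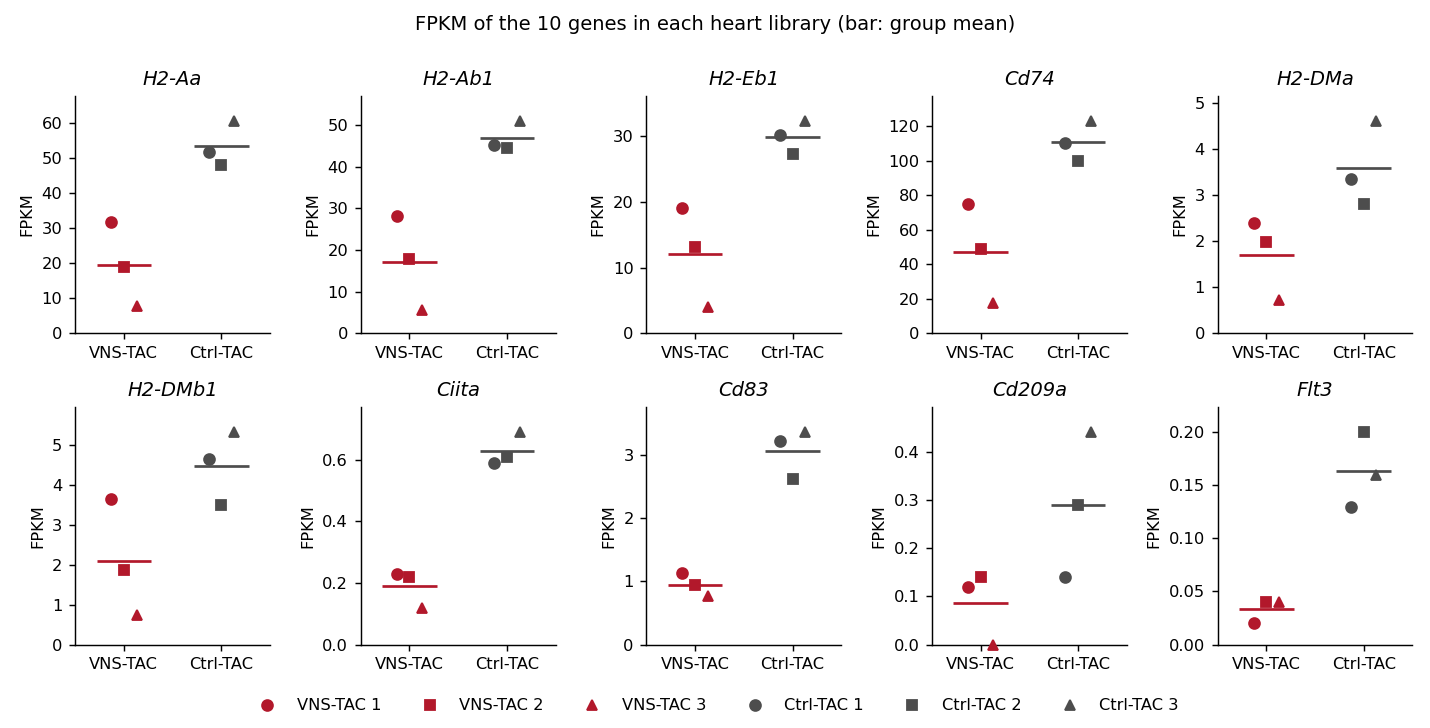
FPKM of each of the 10 genes (one panel each, y axis from 0) in the 3 VNS-TAC libraries (red, left) and the 3 Ctrl-TAC libraries (grey, right); points are libraries and bars are group means. The 2 groups overlap for H2-DMb1 and Cd209a and are apart for the other 8 genes, and VNS-TAC 3 is the lowest library for the class II genes, Cd74, Ciita and Cd83.

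Cd74, the invariant chain, had the highest level of the 10 genes in every library. It was at 74.83, 48.85 and 17.7 FPKM in VNS-TAC hearts, against 110.32, 99.77 and 122.98 FPKM in Ctrl-TAC, with no overlap. The 2 subunits of the H2-DM exchanger were more than 10 times lower in level than H2-Aa in the Ctrl-TAC libraries. H2-DMa was at 2.38, 1.98 and 0.73 FPKM in VNS-TAC hearts, against 3.35, 2.8 and 4.6 FPKM in Ctrl-TAC. H2-DMb1 was at 3.66, 1.86 and 0.75 FPKM in VNS-TAC hearts, against 4.64, 3.5 and 5.32 FPKM in Ctrl-TAC, and VNS-TAC 1 lay above Ctrl-TAC 2. The log2 fold change was -1.43 ± 0.46 for Cd74, -0.80 ± 0.28 for H2-DMa and -0.93 ± 0.34 for H2-DMb1 (SE), with limma adjusted p of 0.255, 0.264 and 0.278. Without VNS-TAC 3 these were -0.86, -0.51 and -0.57. After quantile normalization the groups also overlapped for H2-DMa.

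Some of these values are uncertain in what they count. H2-DMb1 has a close copy, H2-DMb2, with which reads may have been shared, and H2-DMb2 was at 0.17, 0.57 and 0.15 FPKM in VNS-TAC hearts, against 0.6, 0.52 and 0.85 FPKM in Ctrl-TAC. H2-DMa shares exon sequence with Brd2 and Ciita with Dexi, each on the opposite strand, Cd74 overlaps the microRNA gene Mir5107 on its own strand, and no source used here says whether the counting used strand. Brd2 was at 39.1 ± 8.32 FPKM in VNS-TAC hearts and 37.9 ± 1.2 FPKM in Ctrl-TAC, and Dexi at 29.0 ± 4.97 FPKM in VNS-TAC hearts and 32.9 ± 4.39 FPKM in Ctrl-TAC hearts (SD, n = 3 each), with limma adjusted p of 0.946 and 0.599.

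Ciita, the master regulator of the class II genes, was low in all libraries and lower in VNS-TAC. It was at 0.23, 0.22 and 0.12 FPKM in VNS-TAC hearts, against 0.59, 0.61 and 0.69 FPKM in Ctrl-TAC, so that the highest VNS-TAC library stood well below the lowest Ctrl-TAC library. The mean was 0.190 ± 0.061 FPKM in VNS-TAC hearts and 0.630 ± 0.053 FPKM in Ctrl-TAC (SD, n = 3 each), a ratio of 0.302. With a mean under 1 FPKM, Ciita was outside the genes tested. The exact 2-sided permutation test over its 6 values gave p = 0.1, the smallest it can give with 3 libraries against 3. When no filter was applied, limma gave an unadjusted p of 0.000151 and an adjusted p of 0.162. The gene lies on chromosome 16 at 10480014 to 10531064. VNS-TAC 1 and VNS-TAC 2 were nearly level for Ciita, whereas for H2-Aa they stood at 59.4% and 35.5% of the Ctrl-TAC mean.

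Cd83, a surface protein of activated dendritic cells and B cells that is known to hold class II molecules at the cell surface, had the smallest unadjusted p of the 7 genes that could be tested. It was at 1.13, 0.94 and 0.77 FPKM in VNS-TAC hearts, against 3.22, 2.62 and 3.36 FPKM in Ctrl-TAC. The VNS-TAC libraries differed little among themselves here, at 36.8%, 30.7% and 25.1% of the Ctrl-TAC mean. The log2 fold change was -1.06 ± 0.14 (SE; 95% interval -1.40 to -0.73), or -1.60 with a pseudocount of 0.1. Its unadjusted p of 0.000112 ranked place 9 of the 11422 genes, but the limma adjusted p was 0.131. Leaving out any 1 library kept the log2 fold change between -1.14 and -0.996, with limma adjusted p from 0.0672 to 0.563, the highest being without Ctrl-TAC 2.

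Flt3 and Cd209a were close to the limit of detection. Flt3, the receptor whose ligand drives the growth of dendritic cells, was at 0.02, 0.04 and 0.04 FPKM in VNS-TAC hearts, against 0.13, 0.2 and 0.16 FPKM in Ctrl-TAC. By exon length and estimated depth these are about 2, 4 and 4 fragments in VNS-TAC hearts and 12, 17 and 15 in Ctrl-TAC. The groups did not overlap (exact permutation p = 0.1, the smallest possible; limma without the filter, adjusted p = 0.191). Cd209a, a lectin of monocyte-derived and type 2 dendritic cells, stood at 0.12 FPKM in VNS-TAC 1, at 0.14 FPKM in VNS-TAC 2 and is listed at 0 in VNS-TAC 3, against 0.14, 0.29 and 0.44 FPKM in Ctrl-TAC. Those are at most about 10 fragments per library, and the groups met at 0.14 FPKM (exact permutation p = 0.2; limma without the filter, unadjusted p = 0.0376 and adjusted p = 0.341).

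Of the 10 genes, 7 passed the expression filter of a mean of at least 1 FPKM, and Ciita, Cd209a and Flt3 did not. None of the 7 passed the adjusted threshold, and neither did any other gene of the 11422 (0%), the smallest adjusted p being 0.0509. At an unadjusted p under 0.05 limma gave 7 of the 7, all lower in VNS-TAC, where 11.3% of all genes tested were lower at that level and 3.79% higher. The count was 6 without VNS-TAC 2 or without Ctrl-TAC 1, where H2-DMb1 missed that level, and 5 without Ctrl-TAC 3 or with quantile normalization, where H2-DMa missed it too. Without Ctrl-TAC 1 the genes at that level were 208 higher and 627 lower, and without Ctrl-TAC 2 they were 176 higher and 590 lower, against 433 higher and 1286 lower with all 6 libraries. The groups did not overlap in 8 of the 10 genes, all lower in VNS-TAC. Among all genes tested 17.4% were lower without overlap, and 10% of the genes with a mean above 0 but under 1 FPKM. The median log2 fold change was -1.43 over the 7 genes and -0.08 over all genes tested, of which 61.8% were lower. Under size factors, quantile normalization and rescaling to the same sum, 8, 7 and all 10 of the genes were lower without overlap, where the share of all genes tested was 12.5%, 10.5% and 24.5%.

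**Figure D2:**
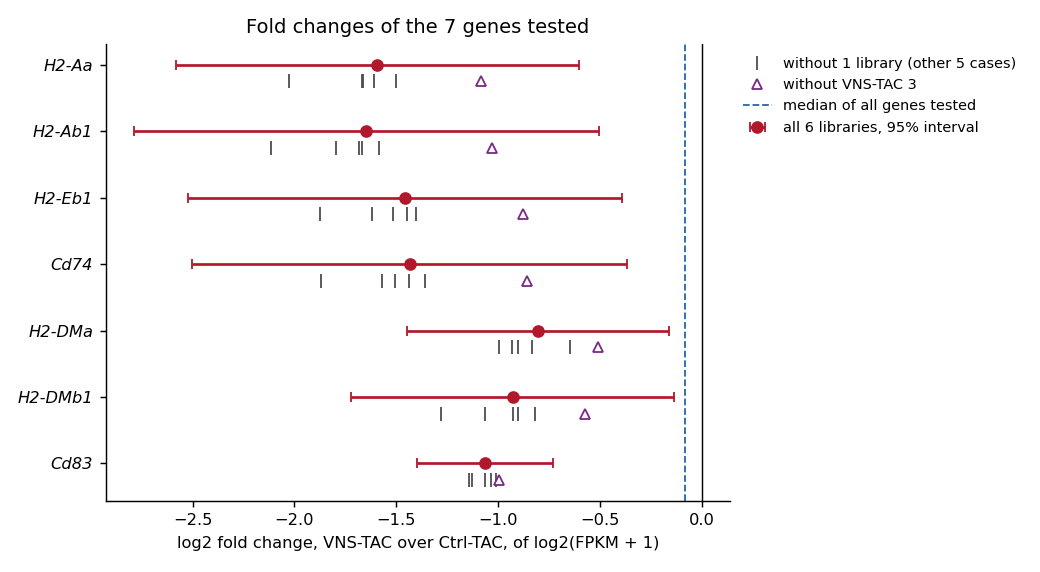
Log2 fold change of VNS-TAC over Ctrl-TAC for the 7 genes tested (x axis, of log2(FPKM + 1)); circles with bars are the estimate from all 6 libraries with its 95% interval, ticks the estimates without 1 library, triangles those without VNS-TAC 3, and the dashed line the median of all genes tested. The chain genes and Cd74 have wide intervals that shift to between -1.08 and -0.86 without VNS-TAC 3, whereas Cd83 stays near -1.06.

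The order of levels was the same in both groups at the top and less certain below. In Ctrl-TAC, Cd74 at 111 ± 11.6 FPKM stood above H2-Aa at 53.5 ± 6.42 and H2-Ab1 at 46.9 ± 3.58 FPKM, whose ranges over the libraries overlapped, and H2-Eb1 at 29.9 ± 2.51 FPKM followed (SD, n = 3 each). H2-DMb1, H2-DMa and Cd83 came next, where H2-DMa overlapped in range with both of the others and H2-DMb1 and Cd83 did not overlap, followed by Ciita, and then Cd209a and Flt3, whose ranges overlapped as well. In VNS-TAC the means kept the order Cd74, H2-Aa, H2-Ab1, H2-Eb1, H2-DMb1, H2-DMa and Cd83, at 47.1, 19.6, 17.2, 12.1, 2.09, 1.70 and 0.947 FPKM.

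Expressed as a share of the Ctrl-TAC mean, the genes differed in how far apart the VNS-TAC libraries lay. The chain genes stood at 59.4% to 63.8% in VNS-TAC 1, at 35.5% to 43.7% in VNS-TAC 2 and at 11.7% to 14.7% in VNS-TAC 3. Cd74 was close to them at 67.4%, 44.0% and 15.9%. H2-DMa was at 66.4%, 55.3% and 20.4%, and H2-DMb1 at 81.6%, 41.5% and 16.7%. Ciita, in contrast, was at 36.5%, 34.9% and 19.0%, and Flt3 at 12.2%, 24.5% and 24.5%. Whether these profiles differ was not tested.

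**Figure D3:**
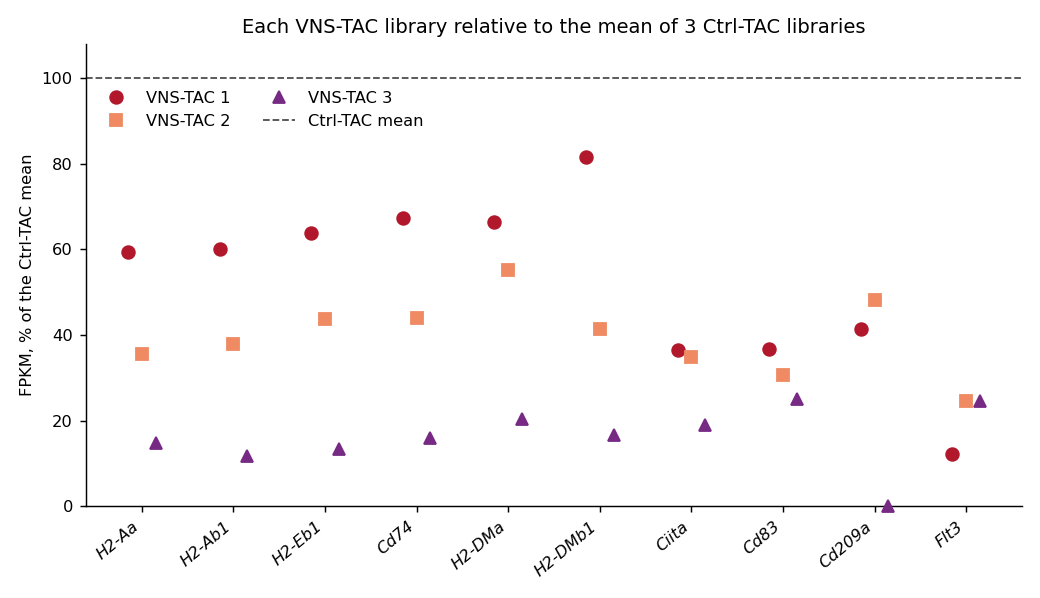
FPKM of each gene in VNS-TAC 1 (circles), 2 (squares) and 3 (triangles) as a percentage of the mean of the 3 Ctrl-TAC libraries (dashed line at 100%). The class II chains, Cd74 and the H2-DM genes spread from VNS-TAC 1 down to VNS-TAC 3, whereas Cd83 lies between 25.1% and 36.8% in all 3.

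The proportions of the chains to each other varied less over the libraries than their levels did. The FPKM ratio of H2-Aa to H2-Ab1 was 1.13, 1.07 and 1.44 in VNS-TAC hearts, against 1.15, 1.08 and 1.19 in Ctrl-TAC hearts. The ratio of H2-Eb1 to H2-Ab1 was 0.677, 0.736 and 0.735 in VNS-TAC hearts, against 0.668, 0.615 and 0.634 in Ctrl-TAC hearts, with no overlap. The ratio of Cd74 to H2-Ab1 was 2.65, 2.75 and 3.23 in VNS-TAC hearts, all above the 2.44, 2.25 and 2.41 of Ctrl-TAC hearts. The ratio of H2-DMa to H2-DMb1 overlapped, at 0.650, 1.06 and 0.973 in VNS-TAC hearts, against 0.722, 0.800 and 0.865 in Ctrl-TAC hearts.

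**Figure D4:**
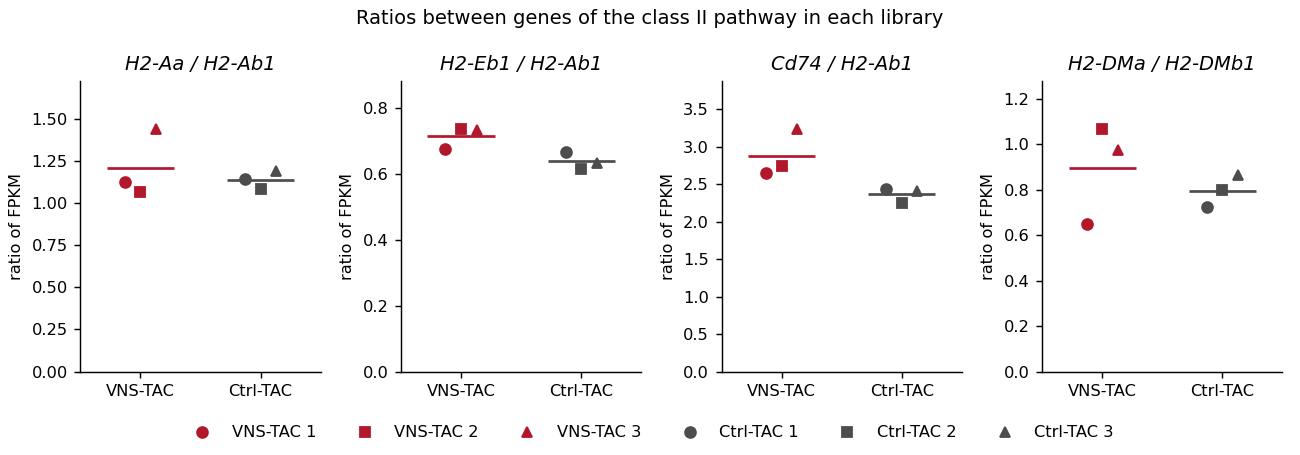
Ratio of FPKM between pairs of class II pathway genes (one panel each, y axis from 0) in the VNS-TAC libraries (red, left) and the Ctrl-TAC libraries (grey, right); bars are group means. The ratios of Cd74 and of H2-Eb1 to H2-Ab1 are higher in each VNS-TAC library than in each Ctrl-TAC library, and the other pairs overlap.

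Genes that act around peptide loading showed no common direction. Of 12 genes of endosomal processing and class II turnover, 11 were tested and 7 were lower in VNS-TAC hearts, where 61.8% of all genes tested were. The median log2 fold change was -0.12, against -0.08 over all genes tested. None had an unadjusted p under 0.05 in limma. The direction of Ctsh and Ifi30 flipped with the scaling, 6 being lower with size factors and 8 after rescaling to the same sum. Ctss, the cathepsin that cuts the invariant chain, was at 13.89, 10.03 and 15 FPKM in VNS-TAC hearts, against 13.03, 15.09 and 13.9 FPKM in Ctrl-TAC, and the groups overlapped. The nearest to a difference was Sppl2a, a protease that clears the last membrane fragment of the invariant chain, at 9.07 ± 2.46 FPKM in VNS-TAC hearts and 12.4 ± 1.01 FPKM in Ctrl-TAC (SD, n = 3 each; limma adjusted p = 0.349). Its log2 fold change of -0.44 became -0.15 with the GC trend of each library removed. Marchf8, a ubiquitin ligase, was at 12.1 ± 1.31 FPKM in VNS-TAC hearts and 14.5 ± 0.091 FPKM in Ctrl-TAC hearts, and Lgmn, an asparagine endopeptidase, at 41.4 ± 11.2 FPKM in VNS-TAC hearts and 49.3 ± 3.99 FPKM in Ctrl-TAC hearts, with limma adjusted p of 0.365 and 0.508. The other genes of the class II locus, H2-DMb2, H2-Oa, H2-Ob and H2-Eb2, were under the filter. Of these only H2-Ob, a subunit of the H2-DM inhibitor H2-O, did not overlap, at 0.12, 0.18 and 0.05 FPKM in VNS-TAC hearts and 0.58, 0.43 and 0.37 FPKM in Ctrl-TAC.

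The regulators of the class II promoter lay on both sides of their Ctrl-TAC level. Of 12 regulators 11 were tested, 3 higher and 8 lower (6 with size factors, 9 after rescaling to the same sum). Their median log2 fold change was -0.07, and with quantile normalization only 4 were lower. Of all genes tested 61.8% were lower, with a median of -0.08. Rfx5, the DNA-binding subunit of the RFX complex, was at 1.99, 2.0 and 2.85 FPKM in VNS-TAC hearts, against 2.64, 2.16 and 2.06 FPKM in Ctrl-TAC. Rfxank, another RFX subunit, was higher, at 11.62, 10.1 and 13.55 FPKM in VNS-TAC hearts, against 7.9, 7.48 and 8.95 FPKM in Ctrl-TAC, a log2 fold change of 0.48 ± 0.14 (SE; limma adjusted p = 0.251). Nfyc, a subunit of NF-Y, was at 32.9 ± 3.17 FPKM in VNS-TAC hearts and 27.98 ± 1.24 FPKM in Ctrl-TAC (SD, n = 3 each; limma adjusted p = 0.401).

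Interferon-gamma is the classical inducer of Ciita. Its own RNA, Ifng, was at 0.05, 0 and 0 FPKM in VNS-TAC hearts, against 0.06, 0 and 0 FPKM in Ctrl-TAC. Of 12 genes of its receptor and signalling, 10 were tested. All 10 were lower in VNS-TAC hearts, also under each of the 4 other scalings and corrections, but 9 when VNS-TAC 2 was left out. Of all genes tested 61.8% were lower. Their median was -0.08, and that of these 10 genes was -0.34 (log2 fold change). At an unadjusted p under 0.05 there were 2, both lower, against 11.3% of all genes tested lower at that level. None passed the adjusted threshold. Ifngr2, a chain of the receptor, was at 81.99, 77.61 and 43.14 FPKM in VNS-TAC hearts, against 110.84, 103.34 and 113.75 FPKM in Ctrl-TAC (log2 fold change -0.74 ± 0.24 SE, limma adjusted p = 0.258). Gbp3, an interferon-induced GTPase, was at 1.64, 2.4 and 2.77 FPKM in VNS-TAC hearts, against 3.84, 3.76 and 5.04 FPKM in Ctrl-TAC (limma adjusted p = 0.232). Ifngr1, the other chain, was at 27.3 ± 3.38 FPKM in VNS-TAC hearts and 33.9 ± 2.62 FPKM in Ctrl-TAC (SD, n = 3 each; limma adjusted p = 0.34). The order of the libraries was not that of the class II chains, the mean of this group relative to Ctrl-TAC being -0.66, -0.46 and -0.12 in VNS-TAC 1, 2 and 3, against -0.68, -1.31 and -2.70 for the chains. The list shares 2 genes with that of the regulators. B2m, the light chain of MHC class I, was at 189 ± 39.8 FPKM in VNS-TAC hearts and 242 ± 30.5 FPKM in Ctrl-TAC and overlapped (limma adjusted p = 0.371).

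The co-stimulatory ligands Cd80 and Cd86, which deliver the second signal to T cells, were under the filter and lower in VNS-TAC without overlap. Cd86 was at 0.36, 0.52 and 0.29 FPKM in VNS-TAC hearts, against 1.3, 1.08 and 0.83 FPKM in Ctrl-TAC. Cd80 was at 0.42, 0.4 and 0.26 FPKM in VNS-TAC hearts, against 0.79, 1.2 and 0.58 FPKM in Ctrl-TAC. Of the 8 co-stimulation genes in the table, 3 were lower without overlap, where 14.8% of all genes above 0 were, and 1, Tnfsf9, higher. The only one of the 4 tested at an unadjusted p under 0.05 was Icosl, the ligand of ICOS, at 4.86 ± 0.445 FPKM in VNS-TAC hearts and 6.90 ± 0.292 FPKM in Ctrl-TAC (SD, n = 3 each; limma adjusted p = 0.244). Cd40 was at 1.30 ± 0.563 FPKM in VNS-TAC hearts and 1.68 ± 0.28 FPKM in Ctrl-TAC hearts, and Cd274, the inhibitory ligand PD-L1, at 3.98 ± 2.81 FPKM in VNS-TAC hearts and 2.64 ± 1.08 FPKM in Ctrl-TAC hearts, both overlapping (limma adjusted p = 0.562 and 0.65).

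Defining markers of dendritic cells other than Cd83, Cd209a and Flt3 were mostly near 0 in both groups. Xcr1, the chemokine receptor of type 1 dendritic cells, was at 0.09, 0.17 and 0.1 FPKM in VNS-TAC hearts, against 0.23, 0.15 and 0.39 FPKM in Ctrl-TAC. Itgax, which encodes CD11c, was at 0.11, 0.16 and 0.07 FPKM in VNS-TAC hearts, against 0.28, 0.27 and 0.24 FPKM in Ctrl-TAC, without overlap. Ccr7, the receptor that guides migrating dendritic cells, was at 0.09, 0.07 and 0.22 FPKM in VNS-TAC hearts, against 0.28, 0.26 and 0.2 FPKM in Ctrl-TAC. Clec9a, Ccl17 and Tnip3 did not share the lower values of these markers. Clec9a, a lectin of type 1 dendritic cells, was at 0.47, 0.74 and 0.99 FPKM in VNS-TAC hearts, against 0.66, 0.84 and 0.71 FPKM in Ctrl-TAC hearts, a ratio of means of 0.996. Ccl17 was at 0.12, 0 and 0.49 FPKM in VNS-TAC hearts, against 0.13, 0.28 and 0.13 FPKM in Ctrl-TAC hearts, and Tnip3 was at 0.32, 0.49 and 0.7 FPKM in VNS-TAC hearts, against 0.34, 0.26 and 0.43 FPKM in Ctrl-TAC hearts, and both overlapped. Il12b was listed at 0 in every VNS-TAC library and at 0.03, 0.08 and 0.03 FPKM in Ctrl-TAC.

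By list, 4 of 8 type 1, 3 of 9 type 2, 1 of 9 migratory and 2 of 8 plasmacytoid dendritic cell markers, Cd83 and Cd209a left out, were lower in VNS-TAC without overlap, against 14.8% of all genes above 0. Zbtb46, a factor of conventional dendritic cells that endothelial cells also express, was at 4.73, 3.36 and 3.29 FPKM in VNS-TAC hearts, against 6.5, 6.95 and 5.35 FPKM in Ctrl-TAC (log2 fold change -0.61 ± 0.17 SE, limma adjusted p = 0.239). Clec10a, a lectin that macrophages share with type 2 dendritic cells, was higher, at 4.43, 3.19 and 5.96 FPKM in VNS-TAC hearts, against 1.65, 1.85 and 2.18 FPKM in Ctrl-TAC (log2 fold change 0.91 ± 0.20 SE, limma adjusted p = 0.197). Mgl2, its close relative, was at 9.3, 3.79 and 1.9 FPKM in VNS-TAC hearts, against 8.97, 8.72 and 8.12 FPKM in Ctrl-TAC, in the library order of the class II chains (limma adjusted p = 0.355). Of the other tested markers with the smallest p, Tlr3 and Irf8 of type 1 cells were at 1.60 ± 0.114 and 3.62 ± 0.923 FPKM in VNS-TAC hearts and 2.31 ± 0.115 and 4.67 ± 0.301 FPKM in Ctrl-TAC. Fscn1 of migratory cells was at 12.1 ± 8.98 FPKM in VNS-TAC hearts and 21.3 ± 4.8 FPKM in Ctrl-TAC hearts, and Tcf4 of plasmacytoid cells at 9.59 ± 2.92 FPKM in VNS-TAC hearts and 15.9 ± 2.89 FPKM in Ctrl-TAC hearts (SD, n = 3 each). Their limma adjusted p ran from 0.266 to 0.412. The log2 fold changes of Tlr3, Irf8, Fscn1 and Tcf4 were -0.35, -0.32, -0.99 and -0.70. With the GC trend of each library removed they were -0.06, -0.30, -1.03 and -0.425. Fscn1 and Tcf4 stood far above defining markers of their lists. Ccr7 of migratory cells averaged 0.247 FPKM and Siglech of plasmacytoid cells 0.16 FPKM in Ctrl-TAC hearts. Which cells the RNA of Fscn1 and Tcf4 came from was not tested. Socs2 and Cd200 of migratory cells, and Cox6a2 and Bst2 of plasmacytoid cells, had limma adjusted p of 0.632, 0.632, 0.352 and 0.45. Cox6a2 is also a cardiac muscle subunit of cytochrome oxidase and reached 3696 FPKM in VNS-TAC hearts and 2810 FPKM in Ctrl-TAC hearts on average.

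Of 7 growth factors and receptors of these cells 5 were tested, 1 higher and 4 lower, where 61.8% of all genes tested were lower. The higher one was Csf2rb, a chain of the GM-CSF receptor, at 1.02, 0.76 and 3.59 FPKM in VNS-TAC hearts, against 0.87, 1.15 and 0.57 FPKM in Ctrl-TAC hearts, and the groups overlapped (limma adjusted p = 0.541). Flt3l, the ligand of Flt3, was at 4.17, 8.47 and 7.27 FPKM in VNS-TAC hearts, against 8.13, 6.79 and 9.03 FPKM in Ctrl-TAC, and overlapped. Kitl, the stem cell factor, was at 3.5, 8.45 and 7.17 FPKM in VNS-TAC hearts, against 13.75, 13.77 and 9.66 FPKM in Ctrl-TAC (limma adjusted p = 0.254). Its receptor Kit was under the filter and lower without overlap, at 0.68, 0.36 and 0.37 FPKM in VNS-TAC hearts, against 1.89, 1.02 and 1.54 FPKM in Ctrl-TAC hearts. Csf2, which encodes GM-CSF, was listed at 0 in every VNS-TAC library and at 0.17, 0.26 and 0 FPKM in Ctrl-TAC hearts. Csf2ra, another GM-CSF receptor chain, was at 6.12 ± 0.396 FPKM in VNS-TAC hearts and 8.35 ± 0.947 FPKM in Ctrl-TAC, and Csf1, the macrophage growth factor, at 14.8 ± 4.73 FPKM in VNS-TAC hearts and 19.4 ± 2.39 FPKM in Ctrl-TAC hearts (SD, n = 3 each; limma adjusted p = 0.264 and 0.401).

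Class II genes are also expressed by macrophages and B cells, whose markers are given here as counts and sums. Of 14 macrophage markers tested, 12 were lower in VNS-TAC hearts, where 61.8% of all genes tested were, and the median log2 fold change was -0.27. None had an unadjusted p under 0.05 in limma, and the count was 9 without VNS-TAC 3 and 10 to 13 under the other scalings and with the GC trend removed. The summed FPKM of the 15 macrophage markers was 261.5 to 485.7 in VNS-TAC hearts and 381.1 to 418.3 in Ctrl-TAC, and overlapped. Adgre1, the F4/80 antigen, was at 4.64, 2.74 and 1.55 FPKM in VNS-TAC hearts, against 4.09, 5.7 and 4.81 FPKM in Ctrl-TAC, whereas Cd68 was at 11.15, 6.3 and 6.63 FPKM in VNS-TAC hearts, against 7.95, 7.29 and 8.76 FPKM in Ctrl-TAC hearts, and the groups overlapped for both. Lyve1 and Timd4, of resident macrophages, were at 9.27 ± 1.58 and 0.79 ± 0.173 FPKM in VNS-TAC hearts, against 12.0 ± 1.16 and 1.24 ± 0.287 FPKM in Ctrl-TAC hearts (SD, n = 3 each; limma adjusted p = 0.337 and 0.362). Their log2 fold changes of -0.35 and -0.32 became -0.19 and -0.12 with the GC trend removed. By library, the mean of the 14 tested macrophage markers fell from 0.04 through -0.24 to -0.50 over VNS-TAC 1, 2 and 3 (log2). This is the library order of the class II chains, over a smaller range. The Ctrl-TAC libraries lay between -0.11 and 0.10 on the same scale. Relative to the macrophage list in the same library, the class II chains were at -0.72, -1.065 and -2.20 (log2) in VNS-TAC hearts, against 0.09, -0.21 and 0.13 in Ctrl-TAC hearts, so they were lower than this list in each VNS-TAC library. The same difference from 9 pan-leukocyte markers was -0.82, -0.92 and -2.46 in VNS-TAC hearts, against -0.08, -0.13 and 0.21 in Ctrl-TAC hearts. Ptprc, the common leukocyte antigen CD45, was itself lower, at 0.63, 0.72 and 0.89 FPKM in VNS-TAC hearts, against 1.39, 1.39 and 1.23 FPKM in Ctrl-TAC (limma adjusted p = 0.251), but VNS-TAC 3 was the highest of its group there. With the GC trend of each library removed its log2 fold change was -0.12. The other pan-leukocyte genes with the smallest p, Tyrobp and Laptm5, had limma adjusted p of 0.419 and 0.468.

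**Figure D5:**
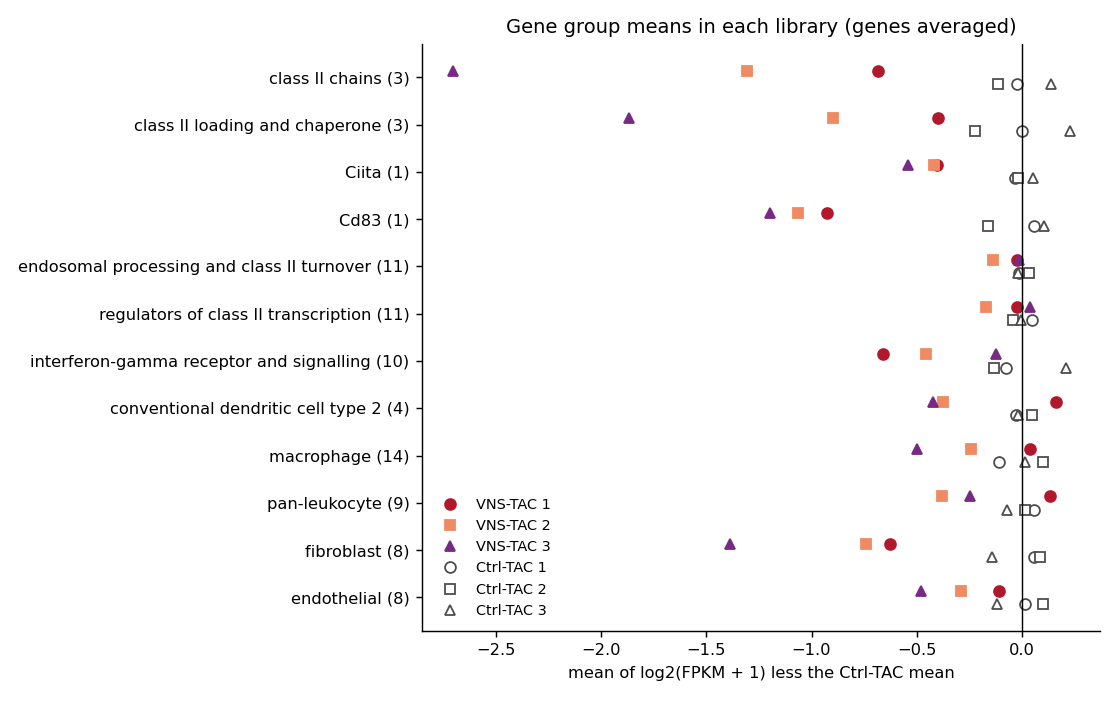
Mean of log2(FPKM + 1) over the genes of each group less the Ctrl-TAC mean (x axis), in VNS-TAC libraries (filled, upper row of each group) and Ctrl-TAC libraries (open, lower row), with the number of genes averaged in parentheses. The class II chains reach -2.70 in VNS-TAC 3, whereas the processing genes, the regulators and the macrophage markers stay within 0.5 of 0.

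B cell and T cell markers were near the detection limit in both groups. Cd3e, a chain of the T cell receptor complex, was at 0.04, 0.23 and 0.13 FPKM in VNS-TAC hearts, against 0.05, 0.1 and 0.14 FPKM in Ctrl-TAC hearts. The sum of 10 B cell markers was 3.78 to 5.15 FPKM in VNS-TAC hearts and 6.0 to 7.67 FPKM in Ctrl-TAC, most of it from Ebf1 and Blk. Both of these tested markers were lower without overlap (limma adjusted p = 0.301 and 0.251), and so were 3 of the 10 markers in all, where 14.8% of all genes above 0 were. With the GC trend of each library removed the log2 fold change of Ebf1 went from -0.36 to -0.13, and that of Blk from -0.71 to -0.725. The sum of 10 T cell markers was 3.31 to 3.57 FPKM in VNS-TAC hearts and 4.15 to 4.5 FPKM in Ctrl-TAC hearts. The part of these cells in the class II values was not tested.

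Markers of other cell types differed between the groups as well. The counts of lower markers below stand beside 61.8% lower among all genes tested. All 10 of 10 neutrophil markers were higher in VNS-TAC without overlap. Only 6 of them were tested, and 8.01% of all genes tested were higher without overlap. The summed FPKM of the 10 markers was 57.1 to 184 in VNS-TAC hearts and 5.19 to 8.68 in Ctrl-TAC. S100a9, S100a8 and Ngp led them, with limma adjusted p of 0.0509, 0.0936 and 0.131. Fibroblast markers were lower in 8 of 8 (7 with the GC trend removed or without VNS-TAC 1), and their mean less that of Ctrl-TAC hearts stood at -0.62 in VNS-TAC 1, -0.74 in VNS-TAC 2 and -1.39 in VNS-TAC 3, the same library order as the class II chains. Postn, Lum and Col3a1 had log2 fold changes of -2.05, -1.30 and -1.59 (limma adjusted p = 0.203, 0.232 and 0.263). Endothelial markers were lower in 7 of 8 with a mean of -0.11, -0.29 and -0.48, also in the library order of the class II chains. They were led by Egfl7, Tie1 and Cldn5 (limma adjusted p = 0.26, 0.273 and 0.291). Of 8 cardiomyocyte markers 4 were lower (3 with size factors, 1 without VNS-TAC 3, 2 without Ctrl-TAC 3), and Tnnt2, Myl3 and Tnni3 had log2 fold changes of 0.52, 0.26 and 0.24. Of 5 tested lymphatic and adipose genes 4 were lower (3 with size factors, quantile normalization or the GC trend removed), with Fabp4, Adipoq and Cidec at -0.38, -0.63 and -0.62. Their part in the class II values was not tested.

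The genes whose profile over the 6 libraries came closest to the mean of the 3 class II chains were compared by the root mean square difference of log2(FPKM + 1), each less its Ctrl-TAC mean. The nearest gene other than the chains themselves was Cd74, at 0.095, while H2-DMb1 lay at 0.506 and H2-DMa at 0.625. The 5 nearest genes outside the 10 were Col6a2 (0.212), Tcim (0.219), Atf3 (0.224), Nrep (0.228) and Col6a3 (0.231). Col6a2 and Col6a3, which encode chains of collagen VI, were at 33.62, 17.91 and 5.93 and at 5.06, 3.0 and 0.69 FPKM in VNS-TAC hearts, against 43.72, 44.56 and 38.35 and 8.32, 8.66 and 6.73 FPKM in Ctrl-TAC. Atf3, a stress-induced transcription factor, was at 14.4, 9.84 and 3.0 FPKM in VNS-TAC hearts, against 17.16, 19.97 and 30.65 FPKM in Ctrl-TAC. All 5 missed the limma threshold, with adjusted p from 0.198 to 0.283.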

How the data were processed

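Heart RNA of 3 VNS-TAC samples was set against that of 3 Ctrl-TAC samples. Per the labels' protocols, oligo-dT beads selected the messenger RNA. The authors deposited FPKM values, per the file headers, to 2 decimals. The submitters' processing notes list HISAT, featureCounts 1.5.0-p3, DESeq 1.8.3 and GRCm38 and assign them no role. No annotation is named. The treatment tag reads VNS for the controls too, so titles gave the groups. Column numbers of the VNS-TAC libraries (1 to 3, kept here) differ from those in their labels, so each column was assigned to the group and to no single sample. Nothing says that libraries came from separate animals, so the p-values rest on a spread between libraries that may be technical.

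Symbols came from RefSeq (GRCm38.p6) for 17890 IDs and GENCODE M21 for 15, and 114 had none. The filter kept 11422 genes whose mean reached 1 FPKM, and log2(FPKM + 1) was compared with limma 3.58.1 in R 4.3.3 with an intensity trend and Benjamini-Hochberg adjustment at 0.05. No count test was run, since the deposited values are not counts. Genes under the filter had an exact permutation test. The script was tested on simulated data. Tables and figures used Python 3.11.15, pandas 2.3.3, numpy 2.4.6, statsmodels 0.14.6 and matplotlib 3.10.9.

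The genes, lists and tests were chosen with earlier results of these data known. The text names these 10 genes, the 3 tested genes of smallest unadjusted p in every other list, defining markers near 0, the 5 genes of closest profile and set points such as Ptprc and Adgre1. Some genes that this rule takes are not reported here. Ctss, Csf2rb, Kit, Clec9a, Tnip3, Cd80, Cd86, Tnfsf9, Ctsh, Ifi30, Brd2, Dexi and Actc1 were named after their values were seen. Medians of the endothelial, fibroblast, neutrophil, cardiomyocyte and adipose lists were -0.32, -0.94, 2.36, 0.03 and -0.38. Alternatives were other pseudocounts and filters, size factors, quantile normalization, equal library sums, limma without its trend or in robust form, each library left out, and, chosen after seeing the data, removal of the GC trend.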

Additional observations from a re-analysis of the deposited data

How the results depend on the processing

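All 7 tested genes kept their direction in every alternative run for them, and none passed the adjusted threshold in any, so 109 of 109 single-gene values stood on the same side. The median log2 fold change of the members tested, -1.43, was -0.995 with no filter and ranged from -1.87 to -0.875 when 1 library was left out, the extremes being without VNS-TAC 1 and without VNS-TAC 3. A filter at a mean of 5 FPKM kept 4 genes, all 4 lower and 4 at an unadjusted p under 0.05, because fewer genes were tested. That count, 7, ranged from 5 to 7 without 1 library, was 5 with quantile normalization and 10 of 10 genes with no filter. Over all genes, the count past the adjusted threshold was 0, and 1 with that filter, 2 with size factors, 1 with quantile normalization, 2 with the GC trend removed and 0 to 3 without 1 library (3 without VNS-TAC 3 and 3 without Ctrl-TAC 1). The cause was not tested. Of all genes, 433 stood higher and 1286 lower at an unadjusted p under 0.05, against 790 and 900 with size factors, 889 and 764 with quantile normalization and 213 and 1767 after rescaling to the same sum. Of 285 counts of lower genes in other lists, 265 stayed within 1.5 times. No paired analysis was possible because the VNS-TAC columns do not carry the numbers of the titles, so a replicate block was not run. Genes near 0.1 FPKM rest on a few fragments.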
